A study of Mus musculus with 6 samples.

Results

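The genes described here are 10 members of the insulin and insulin-like growth factor (IGF) receptor pathway, taken by gene name from a table of 54532 mouse genes: the docking protein genes Irs1 and Irs2, the receptor genes Insr, Igf1r and Igf2r, the binding protein genes Igfbp3, Igfbp4, Igfbp6 and Igfbp7, and the adaptor gene Grb10. They were chosen with their difference between the groups in view, above all the gain of Irs1, so their fold changes are a description and carry no test. Poly-A RNA was sequenced from MB49, a mouse bladder carcinoma line of male origin, in 3 libraries of cells labelled CRISPR Y-KO and 3 of cells labelled CRISPR Y-Scr. The Y-Scr cells are the control and carried a guide without a target, and the sources used here do not name the guide that made the Y-KO cells. In both groups the transduced cells were chosen by their red fluorescence (tRFP) and grown up as clones of 1 cell, and the labels put all libraries in batch 1. Whether the 3 libraries of a group are separate clones, separate cultures or repeats is not stated. The p-values thus measure only the spread between these libraries, which may be technical. With the number of clones unknown, a difference between the groups cannot be told apart from a difference between clones. Below, rose and fell mean higher and lower in Y-KO than in Y-Scr.

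Insulin and the IGFs act through the insulin receptor and the IGF1 receptor, 2 related tyrosine kinases of the cell surface. The activated receptors phosphorylate the docking proteins IRS1 and IRS2, which recruit PI3 kinase and so start the AKT and mTOR branch, which promotes growth and restrains the FOXO transcription factors. The IGF2 receptor has no kinase and carries IGF2 to the lysosome, and the IGF binding proteins hold IGFs outside the cell.

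The libraries held 15698510 to 24633158 counts, and 3 counts stood at 0.125 to 0.190 CPM (CPM being the usual depth-scaled count, here on TMM-scaled library sizes). The labels were checked on 4 Y-linked genes, Ddx3y, Eif2s3y, Kdm5d and Uty, which together had 0, 0 and 0 counts in the Y-KO libraries and 6747, 7119 and 8860 in the Y-Scr libraries. The labels name the cells both a bladder cancer cell line and a tumor: Krt8, a simple epithelial keratin gene, stood at 2816 ± 142 CPM in Y-KO and 2188 ± 67.3 in Y-Scr (SD, n = 3 each), and the mesenchymal filament gene Vim at 5260 ± 132 and 4801 ± 317 CPM in the same groups. The adhesion receptor gene Cd44 stood at 787.1 ± 15.6 CPM in Y-KO and 1105 ± 65.2 in Y-Scr, and the keratin gene Krt18 at 1351 ± 19.7 CPM in Y-KO and 1326 ± 121 in Y-Scr. The epithelial genes Epcam and Cdh1 and the uroplakin gene Upk3a had 0 counts in all 6 libraries, and 8 of 12 genes of the bladder cell list lay under 1 CPM. Of 14 leukocyte markers, 7 had 0 counts, among them Ptprc and Cd3e, and the list's sum of 95.5 to 101.5 CPM in Y-KO and 108.2 to 115.8 in Y-Scr was nearly all Cd68. The 7 endothelial markers summed to 0.996 to 1.45 CPM in Y-KO and 0.665 to 1.128 in Y-Scr. Of the 8 fibroblast and pericyte markers, Pdgfrb had 0 counts, and the list summed to 18.1 to 20.2 CPM in Y-KO and 11.8 to 15.9 in Y-Scr, most of it Pdgfra. The 5 erythroid markers stayed under 0.4 CPM in sum. The part of these markers in the results below was not tested.

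Promoters are shown for Irs1, Irs2 and Igf2r because these are the members that hold the E-box, a short site recognised by basic helix-loop-helix factors, and because Irs1 and Irs2 differed in opposite directions. RefSeq promoters (GRCm38.p6, 250 bases before to 50 after the start) were matched for 9 of the 10 members. The 250 bases before the start are printed 5′ to 3′ on the gene's strand, with the E-box CACGTG in capitals. The regions are chr1:82291440-82291689 (minus strand) for Irs1, chr8:11008930-11009179 (minus strand) for Irs2 and chr17:12769707-12769956 (minus strand) for Igf2r.
Irs1: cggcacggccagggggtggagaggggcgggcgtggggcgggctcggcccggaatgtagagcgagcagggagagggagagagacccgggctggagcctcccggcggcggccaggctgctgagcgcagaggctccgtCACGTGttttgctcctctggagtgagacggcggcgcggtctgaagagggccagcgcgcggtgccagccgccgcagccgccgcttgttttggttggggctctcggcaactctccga
Irs2: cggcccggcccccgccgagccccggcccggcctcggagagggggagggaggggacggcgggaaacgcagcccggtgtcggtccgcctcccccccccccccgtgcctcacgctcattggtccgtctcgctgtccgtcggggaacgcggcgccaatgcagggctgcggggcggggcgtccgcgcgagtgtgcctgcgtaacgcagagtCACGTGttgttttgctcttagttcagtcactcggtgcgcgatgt
Igf2r: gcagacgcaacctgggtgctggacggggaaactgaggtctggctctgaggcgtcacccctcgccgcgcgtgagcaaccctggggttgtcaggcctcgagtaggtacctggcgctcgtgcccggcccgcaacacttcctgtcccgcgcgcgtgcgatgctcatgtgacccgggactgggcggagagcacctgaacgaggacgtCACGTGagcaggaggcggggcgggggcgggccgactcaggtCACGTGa

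The E-box begins 115 bases before the RefSeq start in Irs1, 44 bases before it in Irs2, and 48 and 7 bases before it in Igf2r. The counted Irs2 gene starts at 11008458, outside and downstream of its window (11008880 to 11009179). Those of Irs1 (82291416) and Igf2r (12769664) start inside theirs. The E-box occurred in 7.15% of 32851 mouse promoters of the same length, and in none of the other 6 matched members. The longest run shared by the Irs1 and Irs2 promoters, 10 bases long, spans this site (gtcacgtgtt) and occurred on either strand in 25 promoters of the table. The FOXO core TGTTTAC, searched on both strands and present in 3.65% of promoters, was in no member's window. The GC box GGGCGG, on either strand in 35.7% of promoters, was found 2 times in Irs1, 1 time in Irs2, 2 times in Igf1r, 3 times in Igf2r, 4 times in Igfbp7 and 5 times in 1 of the 2 Grb10 promoters, and not in those of Igfbp3, Igfbp4 and Igfbp6. CpG dinucleotides stood at 0.827 of the number that base composition gives in the Irs1 window and 1.06 in that of Irs2, against a median of 0.384 over all promoters. The windows of Igfbp3 (0.961) and Igfbp7 (0.832), genes without a count in any library, were as rich in CpG as that of Irs1. The share of promoters with the E-box was not taken among promoters equally rich in CpG. The letters TATAAA, on either strand in 13.6% of promoters, were found 1 time each in Igfbp4 and Igfbp6 and in no other matched member. These matches describe the letters in the window only.

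Irs1, which encodes the docking protein through which the insulin and IGF1 receptors reach PI3 kinase, was detected in every Y-KO library and in no Y-Scr library. The gene (ENSMUSG00000055980, chromosome 1, 82233101 to 82291416, minus strand, GRCm38) had 32, 58 and 38 counts in Y-KO and 0, 0 and 0 counts in Y-Scr. This equals 1.72, 3.61 and 2.15 CPM in Y-KO libraries 1, 2 and 3, a mean of 2.49 ± 0.991 CPM (SD, n = 3). All Y-KO libraries lay far above the 0 of the Y-Scr libraries, and Y-KO 2 was the highest. With 3 counts over the Y-Scr group as its upper limit (0.0533 CPM), the Y-KO level of Irs1 over the group was 45.9 times that limit. This bound takes the Y-KO counts as exact. The exact 95% interval of the ratio between the groups, which covers counting error only, begins at 36.8. The bound of 45.9 became 26.4 without Y-Scr 3, the deepest library, since fewer control counts then set the limit. Bulk RNA does not tell more Irs1 RNA per cell from a larger share of cells that express it. A gene annotated on the opposite strand at the end of Irs1, Gm9747, had 0 counts in all libraries, as had 9530052E02Rik, which overlaps Irs2 on the opposite strand. Whether the counting used the strand is not stated, so these 0 counts do not show how reads from the overlaps were assigned.

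Irs2, the paralogue, was detected in both groups and differed in the other direction, by much less. It had 79, 81 and 77 counts (4.24, 5.04 and 4.36 CPM) in Y-KO, against 87, 113 and 168 counts (5.51, 6.84 and 7.02 CPM) in Y-Scr. The 3 Y-KO libraries all lay below the Y-Scr libraries, the nearest pair being Y-KO 2 and Y-Scr 1. The log2 fold change was -0.51 ± 0.19 (SE), a level of 0.702 of that in Y-Scr. Its place past the threshold of the test was lost with DESeq2 (-0.50) and with the replicate number as a block (-0.50). It was also lost without Y-KO 1 (-0.46), Y-KO 3 (-0.48), Y-Scr 2 (-0.47) or Y-Scr 3 (-0.44).

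Set against each other per length, Irs1 remained the lesser docking gene in Y-KO. The ratio of Irs1 to Irs2 in counts per length was 0.280, 0.495 and 0.341 in the Y-KO libraries. In Y-Scr it was at most 0.0238, 0.0184 and 0.0123, with Irs1 set to 3 counts in each library. This ratio within a library does not depend on how libraries are scaled. Irs1 made up 26.8 ± 5.74% of the summed Irs1 and Irs2 level in Y-KO and 0% in Y-Scr (SD, n = 3 each). The sum of the 2 genes, in CPM per kilobase of exon length (RPKM), was 0.859, 1.19 and 0.925 in Y-KO and 0.871, 1.08 and 1.11 in Y-Scr. Its means, 0.992 ± 0.176 in Y-KO and 1.02 ± 0.131 in Y-Scr, differed by less than the spread between libraries. The other docking protein genes, Irs3 and Irs4, had 0 counts in all 6 libraries.

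**Figure D1:**
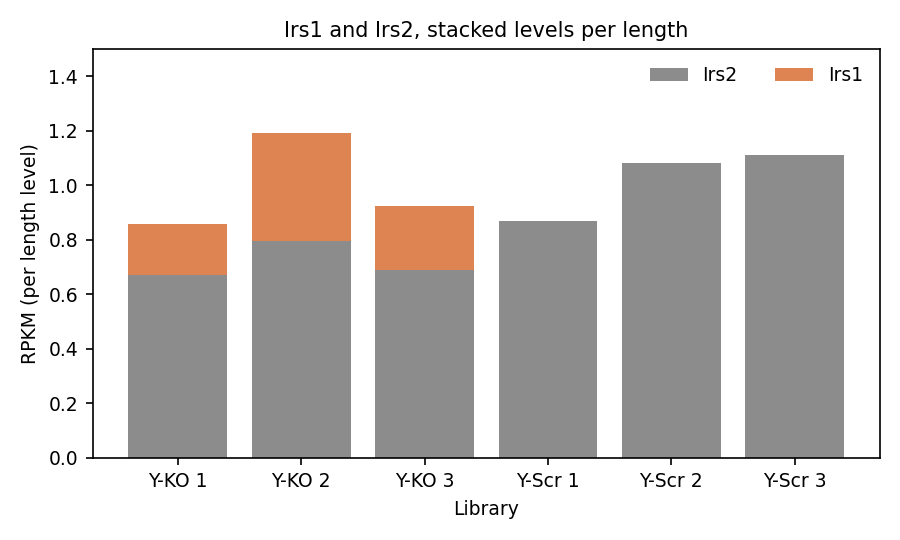
Stacked levels per length (RPKM) of Irs2 (grey) and Irs1 (orange) in each library, with the 3 Y-KO libraries on the left and the 3 Y-Scr libraries on the right. Irs1 is seen in the Y-KO libraries alone, while the summed height overlaps between the groups (0.859 to 1.19 in Y-KO and 0.871 to 1.11 in Y-Scr).

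The 3 receptor genes were each higher in Y-KO, by 1.45- to 1.81-fold. Insr, the insulin receptor gene (ENSMUSG00000005534, chromosome 8, 3122061 to 3279617), stood at 14.6, 22.6 and 17.3 CPM in Y-KO and 12.5, 7.99 and 9.65 CPM in Y-Scr. The groups did not overlap, and the log2 fold change was 0.86 ± 0.18 (SE). Igf1r, the IGF1 receptor gene (ENSMUSG00000005533, chromosome 7, 67952827 to 68233668), stood at 35.1, 42.3 and 41.5 CPM in Y-KO and 34.3, 21.9 and 26.1 CPM in Y-Scr. Y-Scr 1 lay just under the lowest Y-KO library, and the log2 fold change was 0.53 ± 0.14. Igf2r (ENSMUSG00000023830, chromosome 17, 12682406 to 12769664) stood at 33.7, 36.8 and 31.4 CPM in Y-KO, against 23.8, 21.5 and 18.5 CPM in Y-Scr. The groups did not overlap, and the log2 fold change was 0.68 ± 0.11, the largest of the 3 receptors relative to its SE. Airn, the non-coding RNA that overlaps Igf2r on the opposite strand and silences its paternal copy, had 252 counts in Y-KO and 267 in Y-Scr, at 0.03 ± 0.21 (adjusted p = 0.92 by edgeR's quasi-likelihood test). The library kit kept the strand, but the sources used here do not say whether the counting used it, so reads of Igf2r and Airn cannot be told apart with certainty.

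The 4 members Irs1, Insr, Igf1r and Igf2r are long genes, all in the longest of 5 equal classes of tested genes by exon length. In that class 38.1% of the genes passed the threshold as higher and 14.1% as lower, with a median log2 fold change of 0.14, against 5.58% and 24.6% in the shortest class, with a median of -0.14. With each library's trend on length removed, Insr stood at 0.72 ± 0.15 (SE), Igf1r at 0.38 ± 0.10 and Igf2r at 0.60 ± 0.10. Irs2 stood at -0.53 ± 0.19 under that fit, for which the bound of Irs1 was not recomputed. Over all tested genes that fit moved the median log2 fold change up by 0.06.

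Levels per length placed Igf2r above Igf1r and Igf1r above Insr in every library. In Y-KO their means were 3.65 ± 0.291, 2.36 ± 0.233 and 1.32 ± 0.296 RPKM (SD, n = 3), with no overlap between neighbours in that order. In Y-Scr they were 2.28 ± 0.287, 1.63 ± 0.376 and 0.730 ± 0.165 RPKM, and the libraries of Igf2r and Igf1r overlapped. The order of Igf2r and Igf1r rests on the deposited lengths, since in CPM Igf1r lay above Igf2r in every library. The ratio of Igf1r to Insr was 1.97, 1.53 and 1.96 in Y-KO and 2.25, 2.25 and 2.21 in Y-Scr, so all 3 Y-KO libraries lay lower. Insr stood above Irs2 in every Y-KO library (Irs2 mean 0.719 ± 0.0681 RPKM), while in Y-Scr the libraries of Irs2 (1.02 ± 0.131 RPKM) and Insr overlapped. Irs1 per length was 5.96%, 9.49% and 6.32% of the summed receptors Insr and Igf1r in Y-KO, and at most 0.704%, 1.05% and 0.607% in Y-Scr at 3 counts of Irs1.

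The binding protein genes split into a pair at a high level and a pair without counts. Igfbp4, whose product binds IGFs and mostly holds them from the receptor (ENSMUSG00000017493, chromosome 11, 99041244 to 99054392), stood at 346.8, 349.7 and 342.5 CPM in Y-KO and 393.4, 407.5 and 406.3 CPM in Y-Scr. The groups were tight and apart, and the log2 fold change was -0.22 ± 0.06 (SE). Igfbp6, whose product prefers IGF2 over IGF1 (ENSMUSG00000023046, chromosome 15, 102144362 to 102149511), stood at 134.2, 130.8 and 128.9 CPM in Y-KO and 101.2, 110.9 and 118.4 CPM in Y-Scr. The Y-KO libraries all lay above the Y-Scr libraries, with a log2 fold change of 0.25 ± 0.07. Igfbp6 is a short gene, and with the trend on length removed its value was 0.46 ± 0.06, while that of Igfbp4 was -0.16 ± 0.06. Per length the pair lay close together in Y-Scr, Igfbp6 at 99.0 ± 7.76 and Igfbp4 at 91.1 ± 1.77 RPKM with overlapping libraries, and apart in Y-KO, Igfbp6 at 118 ± 2.42 and Igfbp4 at 78.4 ± 0.824 RPKM (SD, n = 3). The ratio of Igfbp4 to Igfbp6 was 0.651, 0.674 and 0.669 in Y-KO and 0.979, 0.925 and 0.864 in Y-Scr.

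Igfbp3, the main carrier of IGFs in blood (chromosome 11, 7206086 to 7213923), and Igfbp7, a relative with weak affinity for IGFs (chromosome 5, 77349240 to 77408041), had 0 counts in all 6 libraries, which allows at most 0.0573 CPM over the Y-KO group and 0.0533 over the Y-Scr group at 3 counts. Grb10, an imprinted gene whose adaptor protein damps both receptors (chromosome 11, 11930508 to 12038683), had 3, 3 and 1 counts in Y-KO and 2, 1 and 1 counts in Y-Scr. Its ratio, Y-KO over Y-Scr, was 1.88 with an exact 95% interval of 0.478 to 8.77 that covers counting error only, so no difference was detectable at this depth.

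**Figure D2:**
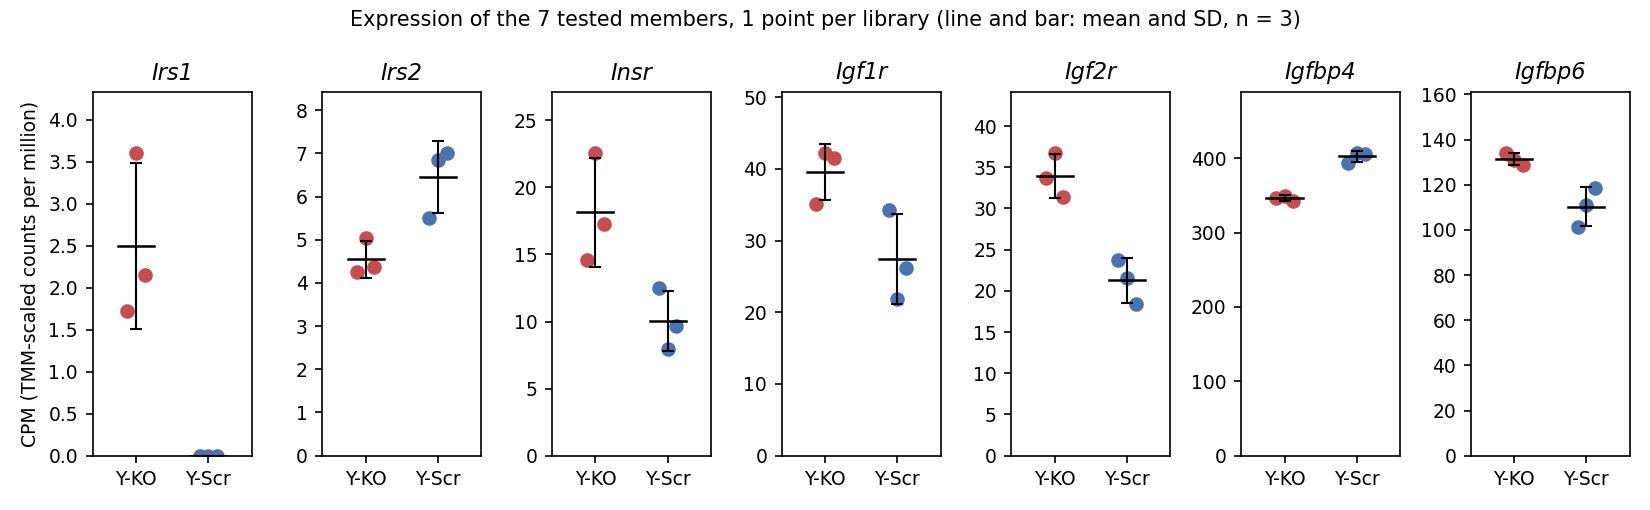
CPM of the 7 members that passed the low-count filter, each panel on its own axis from 0, with Y-KO libraries (red) left of Y-Scr libraries (blue), 1 point per library, and the mean and SD in black. Irs1, Insr, Igf1r, Igf2r and Igfbp6 were higher and Irs2 and Igfbp4 lower in every Y-KO library than in any Y-Scr library.

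Of the 10 members, 7 passed the low-count filter, Irs1 through its Y-KO counts alone. In the fit across all genes 5 of these were past the threshold of 0.05 as higher and 2 as lower in Y-KO, where 43.6% of all 12907 tested genes were past it. The groups did not overlap for 7 members, 5 higher and 2 lower, as for 52.9% of tested genes (25.4% higher and 27.5% lower). Since the members were picked on this contrast, nothing is read from these counts. Directions were opposite for Irs1 (higher) and Irs2 (lower) and for Igfbp6 (higher) and Igfbp4 (lower), while the related receptor genes Insr and Igf1r were both higher.

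On chromosome 1, more of the genes around Irs1 were lower than higher in Y-KO. Past the threshold, 2 of the 20 tested genes nearest to it, 10 on each side, stood higher in Y-KO and 8 stood lower. Over all tested genes the shares were 20.7% higher and 23% lower. The median log2 fold change of the 20 was -0.39, against -0.01 over all tested genes. The nearest, Rhbdd1, which begins 25 kb from the Irs1 start and is named here for its position, stood at -0.74 ± 0.06 (SE), with 5044 counts in Y-KO and 9018 in Y-Scr. The largest fall among the 20 was that of the chemokine gene Ccl20, likewise named after its value was seen, at -5.45 ± 0.25, with 33 counts in Y-KO and 1591 in Y-Scr. Within 1000 kb on each side, 45 other genes are annotated, of which 4 were tested. Around Insr, 10 tested neighbours were counted on 1 side only, as none lies before it on chromosome 8, and their median was -0.0049. The median around Igf1r was 0.07, around Igf2r -0.06, around Igfbp6 0.17 and around Irs2 0.05. Of the 20 neighbours of Igfbp4 on chromosome 11, 7 were higher and 3 lower, against the same shares of 20.7% and 23%. Their median was 0.15, while Igfbp4 itself was lower.

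**Figure D3:**
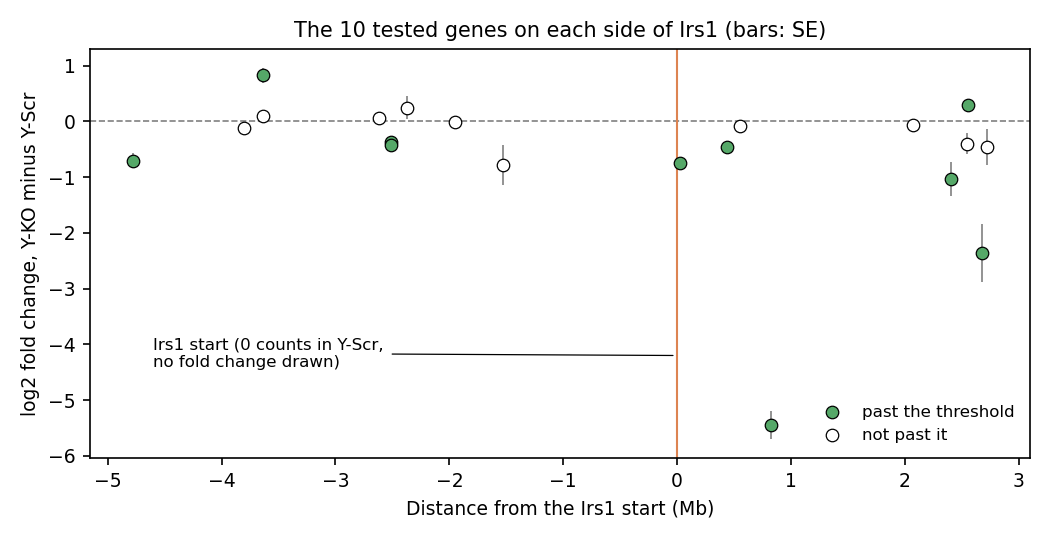
Log2 fold change (Y-KO minus Y-Scr, bars SE) of the 10 tested genes on each side of Irs1 against the distance of their start from the Irs1 start in megabases. Filled points passed the threshold: 8 of the 20 were lower and 2 higher in Y-KO. Over all tested genes 23% were lower and 20.7% higher.

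The genes whose profile over the 6 libraries was most like that of Irs1 were sought among the 9664 protein-coding genes that averaged 5 CPM or more. The measure was the root mean square difference of centred log2 CPM, with a prior count of 2 added before the log. In Y-Scr, where Irs1 had 0 counts, its profile is set by that prior count. Irs1 itself lay under the cut of 5 CPM, so genes at its level were not searched. Piwil2, a gene of the germ-cell piRNA pathway, was nearest at 0.62, with 216, 241 and 227 counts in Y-KO and 4, 4 and 2 in Y-Scr. Nxf3 (0.68), Cyp2s1 (0.92), Nes (1.25) and Slc9a3r2 (1.43) followed. All 5 are on other chromosomes than Irs1, and the likeness rests on 6 libraries that fall into 2 groups.

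No ligand of the pathway was expressed at a level that could be compared. Igf2, Ins1 and Ins2 had 0 counts in all libraries, and Igf1 had 2 counts in Y-KO and 0 in Y-Scr. Among the other binding proteins Igfbp1, Igfbp2, Igfbp5 and Igfbpl1 had 0 counts in all libraries, and Igfals, the partner of the serum complex, had 1 count in each group. The insulin receptor-related receptor gene Insrr had 0 counts. M6pr, which encodes the smaller mannose 6-phosphate receptor that sorts lysosomal enzymes beside the IGF2 receptor, fell slightly (-0.19 ± 0.06, adjusted p = 0.0208 by edgeR's quasi-likelihood test). The call was lost in 4 of the 15 other fits, among them those with the length trend removed (-0.11) and without library Y-KO 2 (-0.14) or Y-KO 3 (-0.19). Of the list of 5 binding protein proteases and their inhibitors 2 were tested, of which 0 rose and 1 fell. Htra1, a secreted serine protease able to cut IGF binding proteins, fell to 3.81, 2.86 and 3.91 CPM in Y-KO, against 14.9, 11.3 and 15.0 CPM in Y-Scr (-1.96 ± 0.18, adjusted p = 4.37e-08). The IGFBP4 protease gene Pappa had 0 counts in Y-KO and 1 in Y-Scr, and its relative Pappa2 stood at 0.21 ± 0.38 (adjusted p = 0.687).

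Beyond the members, 129 genes of the pathway in 13 lists were found in the table and 87 were tested. In Y-KO 33 of them rose and 15 fell, together 55.2%, against 43.6% of all tested genes (20.7% higher and 23% lower). Their median log2 fold change was 0.12, against -0.01 over all tested genes. The lists were chosen with earlier results of these data known, so these shares and the adjusted p-values of listed genes are a description. The listed genes are long too: 37 of the 87 tested (42.5%) lay in the longest class. With the trend on length removed, 36 rose and 16 fell, 41 of them among the 48 called with it. That fit called 3312 of all 12907 tested genes higher and 2498 lower.

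In the list of PI3 kinase and AKT genes 10 of 14 tested genes rose and 1 fell, with a median of 0.26. For this and the lists below, the shares over all tested genes were 20.7% higher and 23% lower. With the trend on length removed 8 rose, as with the block, with no low-count filter, and without Y-KO 2, Y-KO 3 or Y-Scr 2. Akt2 lost its call in 7 and Pdpk1 in 6 of the 15 other fits, both with the length trend removed among them. The rises included kinase subunits and the phosphatases that oppose them. Inppl1, which encodes the lipid phosphatase SHIP2, stood at 131.0, 135.5 and 131.8 CPM in Y-KO and 96.8, 87.0 and 109.2 CPM in Y-Scr and rose by 0.44 ± 0.07 (SE; adjusted p = 9.5e-05 by edgeR's quasi-likelihood test). Phlpp1, which encodes a phosphatase of AKT, rose by 0.49 ± 0.10. The regulatory subunit gene Pik3r2 rose by 0.30 ± 0.06. The lipid phosphatase gene Inpp4b fell (-0.32 ± 0.10), a call lost without Y-Scr 1 (-0.20). The catalytic subunit gene Pik3cb (0.14 ± 0.09) and the regulatory subunit gene Pik3r3 (-0.09 ± 0.27) did not pass.

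In the mTOR list 6 of 15 rose and 2 fell, with a median of 0.16. Deptor, which encodes an inhibitor of mTOR, rose by 0.84 ± 0.15 (SE; adjusted p = 0.000119 by edgeR's quasi-likelihood test), with 11.4, 14.3 and 12.6 CPM in Y-KO and 6.90, 7.62 and 6.81 in Y-Scr. Eif4ebp2, a repressor of cap-dependent translation, rose by 0.53 ± 0.07. The 2 that fell were Rheb, the GTPase that activates mTOR complex 1 (-0.40 ± 0.06), and Eif4e, the cap-binding factor (-0.33 ± 0.07).

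Among receptor adaptors 5 of 16 tested genes rose (31.2%) and 2 fell (12.5%), with a median of 0.07 (0.05 without Y-Scr 1). Only the share called in either direction, 43.8%, was near that over all tested genes (43.6%). With the trend on length removed 7 rose and 1 fell. Crkl (0.34 ± 0.08, SE), Sh2b3 (0.27 ± 0.07), Sh2b1 (0.38 ± 0.10) and the phosphatase gene Ptpn11 (0.24 ± 0.07), which binds docking proteins, rose. Sh2b2, the fifth, stood at 0.32 ± 0.12 and lost its call in 6 of the 15 other fits (0.25 to 0.33 there), among them those without Y-KO 2, Y-KO 3, Y-Scr 2 or Y-Scr 3. The falls of Nck1 (-0.33 ± 0.10) and Dok4 (-0.38 ± 0.13) were both lost without Y-Scr 2. The value of Nck1 in the fits that lost it, without Y-KO 2 or Y-Scr 2, lay between -0.28 and -0.23, and that of Dok4, also lost once the length trend was removed or Y-KO 1 or Y-KO 3 was left out, between -0.38 and -0.25. Gab1 (-0.00 ± 0.08) and Grb2 (0.07 ± 0.07), which link receptors to the RAS branch, did not pass.

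The FOXO list, in which Irs2 and Insr would belong as known targets had they not been members, held 3 rises and 3 falls among 11 tested genes. The median was -0.04, lay between -0.08 and -0.01 when a library was left out, and was 0.01 with the trend on length removed. Removing that trend moved the median over all tested genes up by 0.06 as well. The factors themselves parted. Foxo1 stood at 14.5, 18.1 and 18.8 CPM in Y-KO and 29.7, 24.9 and 24.2 CPM in Y-Scr and fell (-0.61 ± 0.12 SE, adjusted p = 0.00033 by edgeR's quasi-likelihood test). Foxo3 rose by 0.49 ± 0.11 and the X-linked Foxo4 by 0.46 ± 0.12. The repressor gene Bcl6 fell (-0.75 ± 0.10, adjusted p = 4.95e-06). Bcl2l11 (-0.37), a death gene, and Sesn3 (0.32) were the other 2 and lost their calls in 6 and 5 of the 15 other fits, Bcl2l11 without Y-KO 1, Y-KO 3, Y-Scr 1 or Y-Scr 3 (values from -0.39 to -0.29 over its lost fits) and Sesn3 without Y-KO 1, Y-KO 2, Y-Scr 1 or Y-Scr 3 (0.17 to 0.34).

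Genes listed as attenuators of receptor or IRS signalling moved both ways, 3 of 12 tested higher and 2 lower, with a median of -0.16. That median was -0.09 without Y-Scr 1, and 0.012 over 16 genes with no low-count filter. With the trend on length removed 6 were lower, without Y-Scr 3 the number lower was 4, and without Y-Scr 2 the number higher was 1. Trib3, which encodes a pseudokinase that binds AKT, stood at 226.1, 201.3 and 213.8 CPM in Y-KO and 353.2, 357.0 and 346.0 in Y-Scr and fell (-0.72 ± 0.06 SE, adjusted p = 2.65e-08 by edgeR's quasi-likelihood test). Socs3, a feedback inhibitor of cytokine and insulin receptors, fell as well (-0.64 ± 0.10). The ubiquitin ligase gene Nedd4 rose by 0.40 ± 0.07, and whether its product damps signalling in these cells was not tested. Cbl (0.37 ± 0.12), another ligase gene, lost its call without Y-KO 2 (0.21), Y-Scr 2 (0.33) or Y-Scr 3 (0.33), and Ptpn1 (0.27 ± 0.09), the insulin receptor phosphatase gene, without Y-KO 1, Y-KO 3 or Y-Scr 2 (0.20 to 0.28).

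Of the ubiquitin ligase parts known to act on the IRS1 protein, 2 of 5 tested rose and 2 fell. Cul7, the scaffold of the ligase that marks IRS1 for degradation, had 9.40, 10.6 and 9.69 CPM in Y-KO, against 1.90, 3.09 and 4.39 CPM in Y-Scr, and rose by 1.63 ± 0.22 (SE; adjusted p = 1.13e-05 by edgeR's quasi-likelihood test). Every Y-KO library lay above 9 CPM and every Y-Scr library below 5 CPM. Fbxw8, its substrate-binding subunit gene, rose by 0.27 ± 0.08 and lost that call without Y-KO 2 (0.22). Skp1a (-0.24 ± 0.07) fell, a call lost once the length trend was removed (-0.06) and without Y-KO 2 (-0.20) or Y-Scr 2 (-0.16). Mdm2 (-0.20 ± 0.06) fell, with its call lost without Y-KO 1 (-0.20), Y-KO 3 (-0.17) or Y-Scr 2 (-0.17). Of the partners of Cul7 in another complex, Obsl1 had 2 counts in Y-KO and 0 in Y-Scr, and Ccdc8 had 0 in Y-KO and 4 in Y-Scr.

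Of 7 tested genes for glucose uptake and glycogen, 4 rose and 0 fell, with a median of 0.20. Without any 1 of the Y-KO libraries 2 rose. Tbc1d4, which encodes an AKT substrate that controls glucose transporter traffic, stood at 35.6, 38.9 and 40.4 CPM in Y-KO and 25.1, 19.7 and 20.4 in Y-Scr and rose by 0.82 ± 0.10 (SE; adjusted p = 3.66e-06 by edgeR's quasi-likelihood test). The hexokinase gene Hk2 rose by 0.52 ± 0.09. Gys1 (0.20 ± 0.07) and Gsk3a (0.20 ± 0.08), genes of glycogen synthesis and its control, each lost the call in 6 of the 15 other fits: both without Y-KO 1, Y-KO 2 or Y-KO 3, Gys1 also without Y-Scr 2 (0.16 to 0.22) and Gsk3a without Y-Scr 3 (0.17 to 0.22). Slc2a1, the main glucose transporter gene here, stood at 0.10 ± 0.06 (adjusted p = 0.175), and the insulin-responsive transporter gene Slc2a4 had 9 counts in Y-KO and 23 in Y-Scr.

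Of the 3 tested IGF2 mRNA-binding protein genes and regulators, 1 fell. Igf2bp1 stood at 0.657 ± 0.309 CPM in Y-KO and 1.47 ± 0.288 CPM in Y-Scr (SD, n = 3 each), at -1.14 ± 0.43 (SE; adjusted p = 0.0394 by edgeR's quasi-likelihood test). This call was lost with DESeq2 (-1.14), with no low-count filter (-1.14) and in each fit without Y-KO 1 (-1.24), Y-KO 2 (-0.82), Y-Scr 1 (-1.02), Y-Scr 2 (-1.27) or Y-Scr 3 (-1.10). Igf2bp2 stood at -0.54 ± 0.25 (adjusted p = 0.0828) and Hmga2, an abundant gene of that axis, at -0.07 ± 0.06 (adjusted p = 0.404). Of the 8 other imprinted growth genes 6 had 0 counts in all libraries, H19, Plagl1, Dlk1, Meg3, Cdkn1c and Peg3, and Mest had 2 counts in Y-KO and 0 in Y-Scr.

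**Figure D4:**
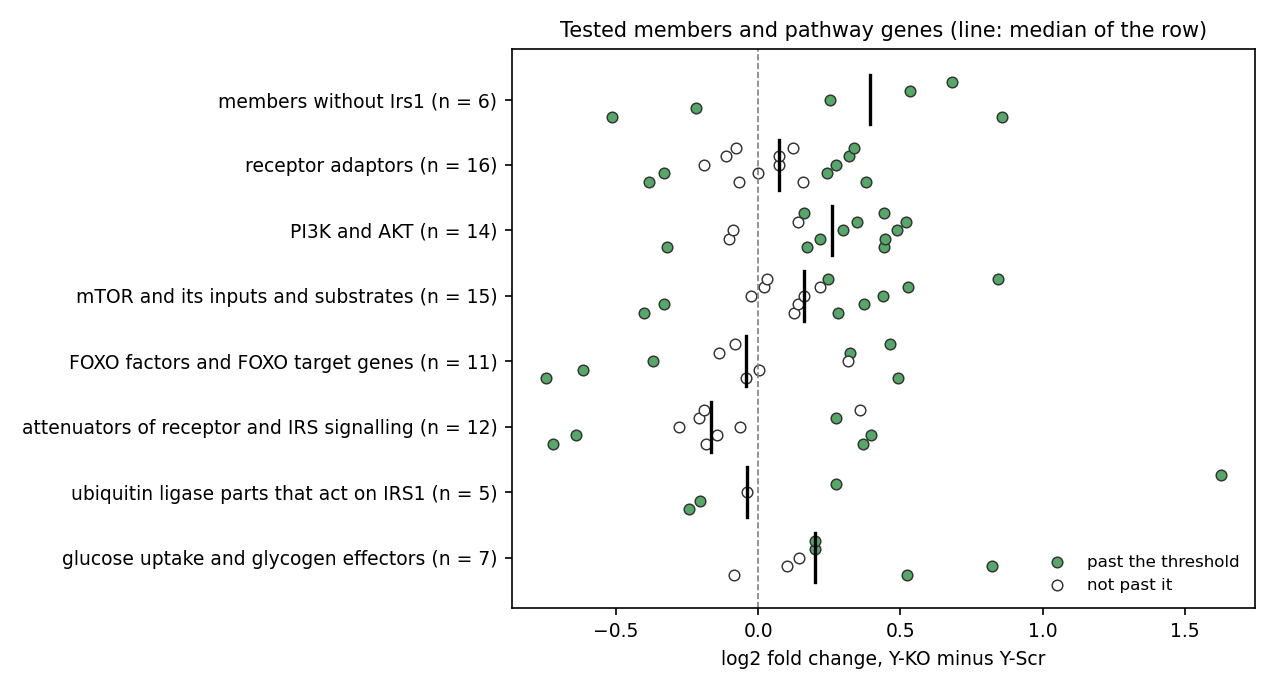
Log2 fold change (Y-KO minus Y-Scr) of the 6 tested members other than Irs1 and of the tested genes of 7 pathway lists, 1 point per gene, filled where past the threshold, with the median of each row as a line. The PI3 kinase and AKT row lies mostly above 0 (median 0.26), and Cul7 at 1.63 is the point farthest right. The FOXO row lies on both sides (median -0.04, and 0.01 with the trend on length removed). Removing that trend moved the median over all tested genes up by 0.06.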

How the data were processed

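The authors deposited raw whole-number read counts per gene, with exon lengths. The submitters' processing notes list STAR 2.5.2b, featureCounts 1.5.3, Trimmomatic 0.39, FastQC 0.12.1, MultiQC 1.13 and DESeq2, and builds GRCm39 and mm39. Of 54495 deposited genes also in GENCODE M21, 98.3% had its GRCm38 coordinates, so GRCm38 is given. Columns were matched to samples by library name. Testing used edgeR 4.0.16 (R 4.3.3): TMM scaling, filterByExpr, a robust quasi-likelihood model of group alone, and Benjamini-Hochberg adjustment over 12907 genes at 0.05. The script was tested on simulated data. A log2 fold change is Y-KO minus Y-Scr. CPM and RPKM were computed here on TMM-scaled library sizes and deposited lengths. Intervals and floors of 3 counts cover counting error only. No replicate pair matched within counting noise (chi-square of 3.52 to 16.3 per degree of freedom). Alternatives were RLE and upper-quartile scaling, DESeq2 1.42.0, limma-voom (limma 3.58.1), other filters, protein-coding genes, the replicate number as a block, removal of a length trend (spline with 4 degrees of freedom) and each library left out. The members and lists were chosen with earlier results of these data known. Named genes were the members, the ligands, the called genes with the lowest adjusted p in each list (at most 4), and the 5 genes most like Irs1. Others, such as genes in counts of 5 or fewer or at 0, were named after their values were seen, and some genes the rule takes are not reported here. RefSeq promoters were matched by symbol.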

Additional observations from a re-analysis of the deposited data

How the results depend on the processing

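When a library was left out, 2141 to 2803 genes were called higher and 2458 to 3000 lower, of them 25 to 34 pathway genes higher and 11 to 16 lower. With the replicate number as a block, 2333 genes were higher and 2627 lower, and 28 and 13 of the pathway genes, and Irs2 (-0.50) and M6pr (-0.19) were not called. Same-numbered libraries of the groups did not deviate together (correlations -0.064, -0.034 and -0.024), and none correlated best with its own number. Each member with a fold change kept its direction in every fit run. With the trend on length removed, Igfbp4 stood at -0.16 and Igfbp6 at 0.46. The bound of Irs1 at 3 Y-Scr counts, with its Y-KO counts taken as exact, was 5.52 on the log2 scale. It lay between 4.72 and 5.74 when a library was left out. It was not recomputed for limma-voom, the block or the length trend. How far removal of the length trend would move it is therefore not known. The difference between groups in the log2 ratio of Irs1 to Irs2 (at least 4.37 with Irs1 at 3 counts per Y-Scr library) was 5.98 with 1 count added to each gene, and that of Irs1 to its receptors (at least 3.21) was 4.83, since 1 count then stands for the Y-Scr libraries. Leaving out a library gave 4.11 to 4.59 and 3.00 to 3.44. Depth limits Grb10, Igfbp3, Igfbp7 and the ligands, at 7 counts or fewer per group.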
